A study of Mus musculus with 9 samples.

Results

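The genes described here were the axon guidance ligands and receptors expressed in cultured neural stem cells (NSCs). They comprised 10 Eph receptors, 7 ephrins, 11 semaphorins, 8 plexins, 2 neuropilins, 3 Slits, 2 Robo receptors, the netrin Ntn1 and 3 netrin receptors. These 47 genes were taken by symbol from a list of family members, with no threshold on their values. The list was chosen with earlier results of these data known, so it was not blind to them. The genes were found in the count table through their Ensembl identifiers, which makes 47 of 48526 genes. All 47 passed the filter on low counts and were tested among 18858 genes.

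Axon guidance cues are ligands that steer growing axons and migrating cells by attraction or repulsion, and most of their receptors act on the cytoskeleton. Ephrins are tethered to the membrane and bind Eph receptor tyrosine kinases on the neighbouring cell, semaphorins bind plexins with or without a neuropilin, Slits bind Robo receptors, and netrins bind DCC, neogenin and UNC5 receptors. In the subependymal zone (SEZ), the neurogenic niche beside the lateral ventricles, these families are known for their roles in progenitor proliferation and in the migration of neuroblasts towards the olfactory bulb.

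The cells were NSCs isolated from the SEZ of adult wild-type C57BL/6 mice (C57BL/6J in the methods of the study) aged 2 to 4 months and grown as neurospheres. Undifferentiated NSCs (0 h) were compared with cells collected 1 h and 6 h after differentiation had been induced by removing EGF and keeping FGF on an adhesive substrate. Each time point had 3 replicates, giving 9 libraries of stranded mRNA with total counts from 65871454 to 105592597. The labels give all 9 libraries, 0 h included, the same treatment text. What a shared replicate number stands for is not stated there. Most fits took the replicate number as a block, which removes the differences between replicates. Their p-values measure the spread that remains, which may be technical. The p-values without the block measure the spread between these samples, which may also be technical. There were no cells kept under growth conditions for 1 h or 6 h, so time since the change of medium and EGF withdrawal cannot be told apart. For cells fixed at early times the methods describe a prior period of seeding in medium with EGF, and they do not say whether the cultures for RNA-seq had this step.

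Markers of the labelled cell type were abundant. The 12 NSC markers summed to between 7708 and 9312 CPM (the counts of a gene relative to the scaled size of its library) at 0 h, with Nes between 1549 and 2317 CPM. At 6 h they summed to between 6847 and 8668 CPM, with Nes between 1105 and 1784 CPM. Of these 12, 5 were called higher and 3 lower at 6 h than at 0 h. All 8 microglial markers stayed under 1 CPM in every library (sum 0.122 to 0.569 CPM). The 8 endothelial markers summed to 5.53 to 20.7 CPM at 0 h and 3.80 to 11.3 CPM at 6 h. Of the 0 h sum Flt1 made 1.62 to 14.7, Kdr 1.71 to 4.12 and Tek 0.816 to 1.73 CPM, while Cldn5 and Cdh5 were at or near 0. Of the 6 endothelial markers tested, 0 were called higher and 3 lower at 6 h than at 0 h. Markers of the oligodendrocyte lineage summed to 1775 to 2362 CPM at 0 h and 2246 to 2605 CPM at 6 h. Of the 0 h sum Olig1 made 1082 to 1509 and Olig2 545 to 701 CPM, while Cnp had 42.7 to 77.8 and Pdgfra 7.84 to 16.5 CPM. Sox10, Mbp and Mog did not exceed 0.327, 1.17 and 0.502 CPM at any time point. The summed markers of pericytes and fibroblasts covered 126 to 162 CPM at 0 h and 198 to 226 CPM at 6 h, where Cspg4, which is also in the oligodendrocyte list, accounted for 151 to 188 CPM. In that list of 8, 2 genes were called higher and 2 lower at 6 h than at 0 h. Pdgfrb had 0.0405 to 0.387 CPM at 0 h and 0.627 to 4.96 CPM at 6 h, Acta2 had 47.8 to 94.2 and 25.2 to 44.7 CPM, Col1a1 reached at most 1.40 CPM, and Dcn and Lum did not exceed 0.0440 CPM. The 14 neuroblast and neuronal markers summed to 1414 to 1993 CPM at 0 h and 1418 to 2048 CPM at 6 h, of which Map2 made 925 to 1463 CPM at 0 h. Of these 14, 5 were called higher and 0 lower at 6 h than at 0 h, and Syt1 had 10.5 to 33.5 CPM at 0 h and 39.8 to 113 CPM at 6 h, while Dcx did not exceed 1.78 CPM. Of the 12 oligodendrocyte lineage markers 7 were called higher and 0 lower. The astrocytic markers summed to 837 to 1050 and 1044 to 1220 CPM, and the ependymal markers to 48.4 to 89.8 and 40.3 to 61.5 CPM. Of the 8 astrocytic markers 2 were called higher and 1 lower, and of the 4 ependymal markers tested 0 and 2. Of the astrocytic sum Aldoc made 498 to 696 CPM at 0 h, while Gfap, Aqp4 and S100b did not exceed 1.63, 3.16 and 3.32 CPM. The share of tested markers called either way at 6 h against 0 h was 66.7% (NSC), 35.7% (neuronal) and 58.3% (oligodendrocyte). It was 37.5% (astrocytic), 50% (ependymal), 50% (endothelial) and 80% (pericyte and fibroblast). Of all genes tested, 34.9% were called, and the margins were not tested. The part of the marker shifts in the results for the guidance genes was not tested. In bulk samples, fewer cells of a type and less RNA per cell cannot be told apart.

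Expression levels of the guidance genes in undifferentiated NSCs covered a wide range. Levels between genes were compared as CPM per kilobase of exon (union of exons), and values over replicates are mean ± SD. The plexin Plxnb2, a receptor of class 4 semaphorins, had the highest level at 82.2 ± 18.5 CPM per kb (n = 3). It was followed by the transmembrane semaphorin Sema6d at 38.3 ± 14.1 CPM per kb and by Plxna1, a receptor for Sema6d and for secreted semaphorins, at 27.2 ± 3.49 CPM per kb. The levels of Sema6d and Plxna1 overlapped within their SDs, as did those of Plxna1 and the next gene, Ntn1 (23.0 ± 4.29 CPM per kb). Plxnb1 (19.4 ± 0.822), Neo1, which encodes neogenin (16.6 ± 0.475), Sema6a (16.3 ± 1.92), Sema5b (15.8 ± 3.94) and Plxna2 (10.2 ± 3.10 CPM per kb) completed the genes above 10 CPM per kb. With the length of the longest transcript in place of the union of exons, the 4 highest and the 2 lowest genes kept their ranks.

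At the other end stood Slit2 with 0.109 ± 0.0992, Slit3 with 0.0403 ± 0.0559 and Epha3 with 0.0161 ± 0.00623 CPM per kb. The SD of Slit3 was larger than its mean. Epha3, a receptor of ephrin-A ligands, had 7, 9 and 14 counts in the 0 h libraries, 12, 11 and 18 counts at 1 h and 12, 14 and 24 counts at 6 h, in the order of replicates 1, 2 and 3. Its differences between time points had standard errors of 0.34 to 0.37 on the log2 scale, and none passed the test.

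Summed over the family, the 8 plexins gave 141, 145 and 182 CPM per kb in the 0 h replicates 1, 2 and 3, and the 11 semaphorins 81.1, 104 and 118 CPM per kb. The 10 Eph receptors gave 28.8, 24.9 and 27.6 CPM per kb, and the 7 ephrins 17.2, 20.8 and 22.3 CPM per kb. The 3 Slits gave only 1.76, 1.19 and 1.52 CPM per kb, against 7.12, 10.1 and 8.65 CPM per kb for the Robo receptors. At 0 h, receptors of the plexin family were thus the most abundant transcripts of these families, and Slits the least abundant.

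**Figure D1:**
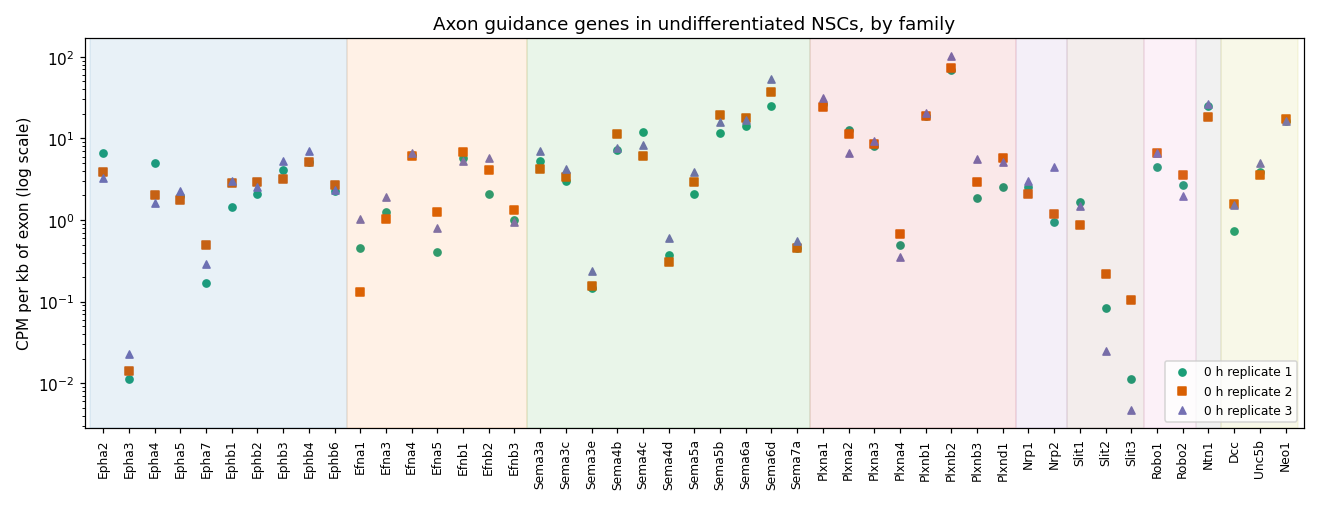
Level of each of the 47 genes in the 3 libraries of undifferentiated NSCs (0 h), as CPM per kb of exon on a log axis, with 1 symbol per replicate and background shading by family. Plxnb2 lies highest (mean 82.2) and Epha3 lowest (mean 0.0161), and the replicates of Slit2, Slit3, Efna1 and Nrp2 lie far apart.

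At 6 h, 11 of the 47 genes were higher and 11 were lower than at 0 h (adjusted p under 0.05). All adjusted p-values given here come from the quasi-likelihood test of edgeR with Benjamini-Hochberg adjustment across the 18858 genes, with the replicate number as a block unless stated otherwise. Of all genes tested, 17.4% were called higher and 17.5% lower. The share of guidance genes called in either direction, 46.8%, can be set beside 34.9% of all genes, and this margin was not tested. It depended on the genes set beside. With a mean of at least 1 CPM required, 10 of 44 guidance genes were called higher and 10 lower, beside 3168 and 2916 of 13606 genes, which are close shares. The median log2 fold change of the 47 genes was 0.05, against -0.00 over all genes, and the median absolute change was 0.21 against 0.20. With a log2 fold change of 0.5 or more in size as a further condition, 6 genes were higher (Ephb4, Efnb1, Plxnb1, Plxnb3, Slit2 and Slit3) and 4 were lower (Epha2, Efna5, Sema6d and Robo2), against 10.7% of all genes.

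These calls rested on comparing libraries within a replicate number. Without the block, 1 of the 47 genes, Plxnb1, was called at 6 h (adjusted p = 0.00672), against 2.42% of all genes, and the adjusted p-values of the other 21 genes lay between 0.0977 and 0.848. The 6 h libraries lay completely above or below the 0 h libraries for Ephb4, Efna4, Efnb1 and Plxnb1, which makes 4 of 47 genes against 25.0% of all genes. For 20 of the 22 genes called, the direction was the same in 3 of 3 replicates, the exceptions being Slit3 and Ntn1.

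**Figure D2:**
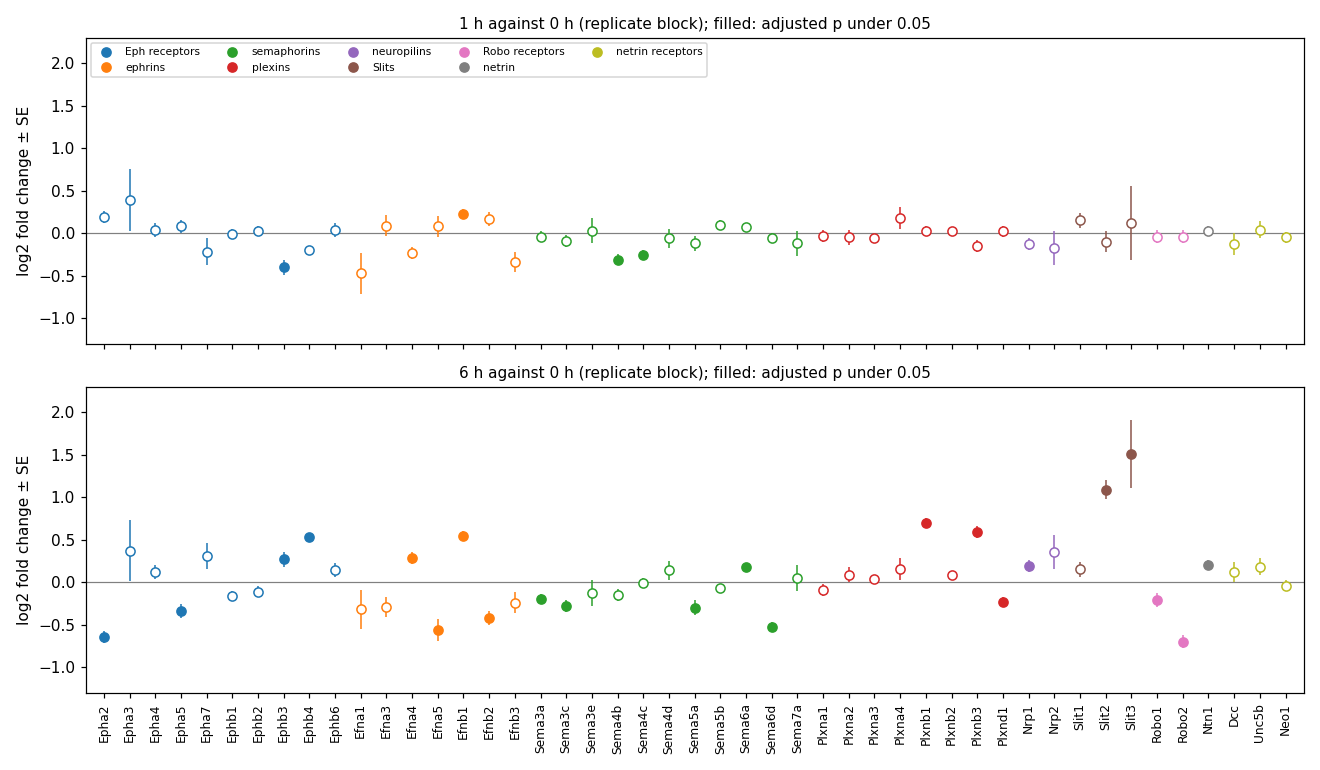
Log2 fold change of each of the 47 genes at 1 h (top) and 6 h (bottom) against 0 h from the fit with the replicate block, with bars of 1 SE and colours by family. Filled circles passed an adjusted p under 0.05, which 4 genes did at 1 h and 22 at 6 h, with Slit2 (1.09) and Slit3 (1.51) highest and Epha2 (-0.65) and Robo2 (-0.70) lowest at 6 h.

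Among the Eph receptors, 2 of 10 rose and 2 fell at 6 h, against 17.4% and 17.5% of all genes. Ephb4, a receptor of ephrin-B2 (chromosome 5, 137350109 to 137378669, GRCm38), had 23.6, 23.7 and 32.3 CPM in replicates 1, 2 and 3 at 0 h, 20.0, 21.1 and 28.6 CPM at 1 h, and 32.6, 34.1 and 48.8 CPM at 6 h. All 6 h libraries lay above all 0 h and 1 h libraries, by a narrow margin over replicate 3 at 0 h. The change at 6 h against 0 h was 0.53 ± 0.05 (log2 ± SE, adjusted p = 1.2e-05; without the block adjusted p = 0.226). Its exons overlap those of Zan on the opposite strand, which held 388 counts over the 9 libraries against 21710 for Ephb4.

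Ephb3, another receptor of ephrin-B ligands (chromosome 16, 21204755 to 21223305), changed direction between the time points. It had 27.6, 21.4 and 35.0 CPM at 0 h, 18.8, 18.3 and 25.8 CPM at 1 h, and 29.4, 24.2 and 50.5 CPM at 6 h. Each replicate was lowest at 1 h and highest at 6 h, although the groups overlapped. The fall at 1 h was -0.40 ± 0.09 (adjusted p = 0.033) and the rise from 1 h to 6 h 0.68 ± 0.09 (adjusted p = 1.3e-04). The difference between 6 h and 0 h (0.27 ± 0.09, adjusted p = 0.0352) was lost when the 0 h replicate 2, the 0 h replicate 3 or the 6 h replicate 3 was left out, with adjusted p-values up to 0.276.

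Epha2, a receptor of ephrin-A ligands (chromosome 4, 141301240 to 141329384), fell. It had 30.7, 18.3 and 15.3 CPM at 0 h, 36.5, 21.0 and 16.7 CPM at 1 h, and 17.7, 12.2 and 10.4 CPM at 6 h. Replicate 1 was the highest at every time point, and its 6 h value exceeded the 0 h value of replicate 3, so that the groups overlapped. The change was -0.65 ± 0.07 at 6 h against 0 h (adjusted p = 2.4e-05) and -0.84 ± 0.07 against 1 h (adjusted p = 3.3e-06). Epha5 also fell, from 33.7 ± 4.41 to 26.6 ± 5.30 CPM (log2 -0.34, adjusted p = 0.00407).

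Epha7 (chromosome 4, 28813131 to 28967499) had 1.69, 4.90 and 2.83 CPM at 0 h, 1.77, 4.43 and 1.93 CPM at 1 h, and 1.57, 7.06 and 3.54 CPM at 6 h. Replicates 2 and 3 were higher at 6 h and replicate 1 was not. The rise from 1 h to 6 h was called (0.52 ± 0.16, adjusted p = 0.0199), and the call was lost without replicate 2 or 3 of either time point (adjusted p up to 0.153). Epha3, Epha4, Ephb1, Ephb2 and Ephb6, the last of which lacks kinase activity, did not pass the test in any comparison, with log2 fold changes at 6 h against 0 h between -0.16 and 0.37.

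Of the 7 ephrins, 2 rose and 2 fell at 6 h, against 17.4% and 17.5% of all genes. Efnb1 (chromosome X, 99136130 to 99148991), which encodes the transmembrane ligand ephrin-B1, had 19.7, 23.6 and 18.5 CPM at 0 h, 23.3, 27.5 and 21.9 CPM at 1 h, and 30.4, 34.2 and 25.6 CPM at 6 h. It rose in each replicate from 0 h to 1 h and again from 1 h to 6 h, and the 0 h and 6 h groups did not overlap. The change was 0.54 ± 0.06 at 6 h (adjusted p = 1.7e-05) and 0.23 ± 0.06 at 1 h (adjusted p = 0.0468). The call at 1 h held in 1 of the 9 fits with a library removed.

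Efnb2, which encodes ephrin-B2 (chromosome 8, 8617434 to 8661242), moved the other way. It had 14.3, 28.3 and 39.0 CPM at 0 h, 17.1, 31.8 and 41.6 CPM at 1 h, and 9.27, 23.2 and 29.9 CPM at 6 h. Each replicate was lower at 6 h, while the replicates differed more from each other than the time points did. The change was -0.42 ± 0.08 at 6 h against 0 h (adjusted p = 0.00107) and -0.59 ± 0.08 against 1 h (adjusted p = 8.7e-05).

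The ephrin-A genes Efna4 and Efna5 also moved in opposite directions. Efna4 (chromosome 3, 89333390 to 89338028) had 10.1, 9.81 and 10.5 CPM at 0 h, 8.22, 8.76 and 8.87 CPM at 1 h, and 11.9, 12.5 and 12.5 CPM at 6 h. Its replicates lay close together, and the 3 time points did not overlap. The rise was 0.28 ± 0.07 against 0 h (adjusted p = 0.00608; 0.0506 without the 0 h replicate 2) and 0.51 ± 0.07 against 1 h (adjusted p = 1.0e-04; 0.0353 without the block). The antisense neighbour 4731419I09Rik, whose exons overlap it, held 254 counts in all against 7504 for Efna4.

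Efna5 (chromosome 17, 62604184 to 62881317) had 1.64, 5.08 and 3.26 CPM at 0 h, 1.86, 5.18 and 3.43 CPM at 1 h, and 0.868, 3.52 and 2.47 CPM at 6 h. It was lower at 6 h in 3 of 3 replicates, with overlapping groups. The change was -0.56 ± 0.13 against 0 h (adjusted p = 0.0039) and -0.64 ± 0.13 against 1 h (adjusted p = 0.00164). Efna1, Efna3 and Efnb3 did not pass the test at 6 h against 0 h (log2 fold changes from -0.32 to -0.24), and Efna3 was called lower at 6 h against 1 h (-0.38, adjusted p = 0.0249).

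Of the 11 semaphorins, 1 was higher and 4 were lower at 6 h than at 0 h, against 17.4% and 17.5% of all genes. The largest change among them was in Sema6d (chromosome 2, 124089969 to 124667770), which had the highest mean level per kb among the ligands at 0 h, within overlapping SDs of Ntn1. At 6 h their means were 26.7 ± 10.5 and 26.3 ± 4.28 CPM per kb. It had 260, 395 and 557 CPM at 0 h, 263, 403 and 473 CPM at 1 h, and 173, 278 and 394 CPM at 6 h. The order of the replicates was the same at every time point, and each was lowest at 6 h. The change was -0.53 ± 0.06 at 6 h against 0 h (adjusted p = 3.6e-05) and -0.47 ± 0.06 against 1 h (adjusted p = 1.0e-04).

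The secreted semaphorins Sema3a (-0.20, adjusted p = 0.0164) and Sema3c (-0.28, adjusted p = 0.00583) and the transmembrane Sema5a (-0.30, adjusted p = 0.0162) were lower by smaller amounts. Sema6a, a ligand of Plxna2 and Plxna4, was higher, from 143 ± 16.9 to 162 ± 17.5 CPM (0.18, adjusted p = 0.0177). These 4 calls were lost in at least 1 of the 9 fits with a library removed, with adjusted p-values up to 0.132 for Sema3a, 0.0583 for Sema3c, 0.129 for Sema5a and 0.11 for Sema6a. After correction for GC content and transcript length, the change of Sema3a was -0.09 (adjusted p = 0.115). The other semaphorins (Sema3e, Sema4b, Sema4c, Sema4d, Sema5b and Sema7a) had changes between -0.15 and 0.14 at 6 h against 0 h that did not pass the test.

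Of the 8 plexins, 2 rose and 1 fell at 6 h, against 17.4% and 17.5% of all genes. Plxnb1, the receptor of Sema4d (chromosome 9, 109095389 to 109119917), gave the smallest adjusted p of the 47 genes in this comparison. It had 182, 181 and 195 CPM at 0 h, 190, 193 and 186 CPM at 1 h, and 278, 311 and 316 CPM at 6 h. The 0 h and 1 h libraries lay within a narrow band, and all 6 h libraries lay above it. The change at 6 h was 0.70 ± 0.05 against 0 h (adjusted p = 9.1e-07) and 0.67 ± 0.05 against 1 h (adjusted p = 1.5e-06; 0.0087 without the block). At 1 h it was 0.03 ± 0.05. The antisense neighbour Gm7628 held 376 counts in all, against 166036 for Plxnb1. Its ligand gene Sema4d did not pass the test (0.14 ± 0.11, adjusted p = 0.371).

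Plxnb3, a receptor of Sema5a (chromosome X, 73757090 to 73772514), had 12.1, 18.8 and 36.6 CPM at 0 h, 11.0, 17.5 and 32.2 CPM at 1 h, and 16.5, 28.1 and 59.8 CPM at 6 h. Replicate 3 stood well above replicate 1 throughout, and each replicate was highest at 6 h. The change was 0.59 ± 0.07 against 0 h (adjusted p = 2.6e-05; without the block adjusted p = 0.661).

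The most abundant plexins did not pass the test. Plxnb2 (chromosome 15, 89155549 to 89180788) had 538, 567 and 799 CPM at 0 h, 547, 600 and 768 CPM at 1 h, and 566, 638 and 801 CPM at 6 h. Its change at 6 h against 0 h was 0.08 ± 0.05 (adjusted p = 0.222). Plxna1 (chromosome 6, 89316314 to 89362620) had 238, 219 and 281 CPM at 0 h, 248, 235 and 235 CPM at 1 h, and 214, 215 and 263 CPM at 6 h, with a change of -0.09 ± 0.07 (adjusted p = 0.334). Plxnd1, a receptor of Sema3e, was called lower (-0.23, adjusted p = 0.00953), and Plxna2, Plxna3 and Plxna4 had changes between 0.04 and 0.15 that did not pass.

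The 2 neuropilins, co-receptors of the secreted semaphorins, differed in how they varied between replicates. Nrp1 was higher at 6 h in 3 of 3 replicates (0.19 ± 0.07 against 0 h, adjusted p = 0.0426; 0.32 ± 0.07 against 1 h, adjusted p = 0.00295). The first of these calls was kept in 3 of the 9 fits with a library removed. Nrp2 had 11.1, 13.9 and 52.2 CPM at 0 h, 10.2, 13.3 and 43.5 CPM at 1 h, and 10.5, 32.1 and 47.8 CPM at 6 h. Only replicate 2 was higher at 6 h than at 0 h, and the comparison did not pass the test (0.36 ± 0.20, adjusted p = 0.191).

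At 6 h, the ligand genes Slit2 and Slit3 were called higher and both Robo receptor genes lower. Slit2 (chromosome 5, 47983138 to 48307733) had 2.14, 5.55 and 0.630 CPM at 0 h, 1.89, 5.18 and 0.653 CPM at 1 h, and 4.19, 11.7 and 1.61 CPM at 6 h. Each replicate rose between 1 h and 6 h, while the replicates kept the same order and the groups overlapped. The change was 1.09 ± 0.11 against 0 h (adjusted p = 8.3e-06) and 1.20 ± 0.11 against 1 h (adjusted p = 4.8e-06), without the block adjusted p = 0.662 and 0.618. In counts, the lowest library at 0 h held 44 and the lowest at 6 h held 173.

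Slit3 (chromosome 11, 35121224 to 35708507) gave 0.0691, 0.635 and 0.0286 CPM at 0 h, 0.141, 0.646 and 0 CPM at 1 h, and 0.326, 1.80 and 0 CPM at 6 h. Its counts were 5, 47 and 2 at 0 h, 9, 59 and 0 at 1 h, and 24, 164 and 0 at 6 h. Replicates 1 and 2 were higher at 6 h, and replicate 3 had no counts at 1 h and 6 h, which allows up to 0.0412 and 0.0284 CPM (3 counts per library, counting error only). The change of 1.51 ± 0.40 against 0 h (adjusted p = 0.00957) was lost without the 0 h or 6 h library of replicate 2 (adjusted p up to 0.182) and with DESeq2. Slit1, the most abundant Slit with 1.34 ± 0.422 CPM per kb at 0 h, changed by 0.15 ± 0.09 (adjusted p = 0.228).

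Robo2 (chromosome 16, 73891839 to 74411825) had 45.0, 59.7 and 33.5 CPM at 0 h, 47.2, 60.1 and 29.2 CPM at 1 h, and 25.7, 44.5 and 17.9 CPM at 6 h. It fell in each replicate between 1 h and 6 h, with overlap because replicate 2 was high throughout. The change was -0.70 ± 0.08 against 0 h (adjusted p = 4.2e-05; without the block adjusted p = 0.439) and -0.67 ± 0.08 against 1 h (adjusted p = 6.9e-05). Robo1 was called lower by -0.21 ± 0.08 (adjusted p = 0.0469), a call that 6 of 9 fits without a library did not give. Per kb, the ratio of Robo2 to Robo1 was 0.593, 0.536 and 0.295 at 0 h and 0.435, 0.440 and 0.174 at 6 h, lower in each replicate.

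Ntn1, which encodes netrin-1, had 155, 114 and 165 CPM at 0 h and 193, 140 and 163 CPM at 6 h. It was higher in replicates 1 and 2 and about level in replicate 3 (0.20 ± 0.06, adjusted p = 0.0243), and 4 of 9 fits without a library lost the call. After the same correction, its change was 0.12 (adjusted p = 0.0831). None of its receptors Dcc, Unc5b and Neo1 passed the test in any comparison, with changes at 6 h against 0 h of 0.12 ± 0.12, 0.18 ± 0.10 and -0.04 ± 0.06.

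**Figure D3:**
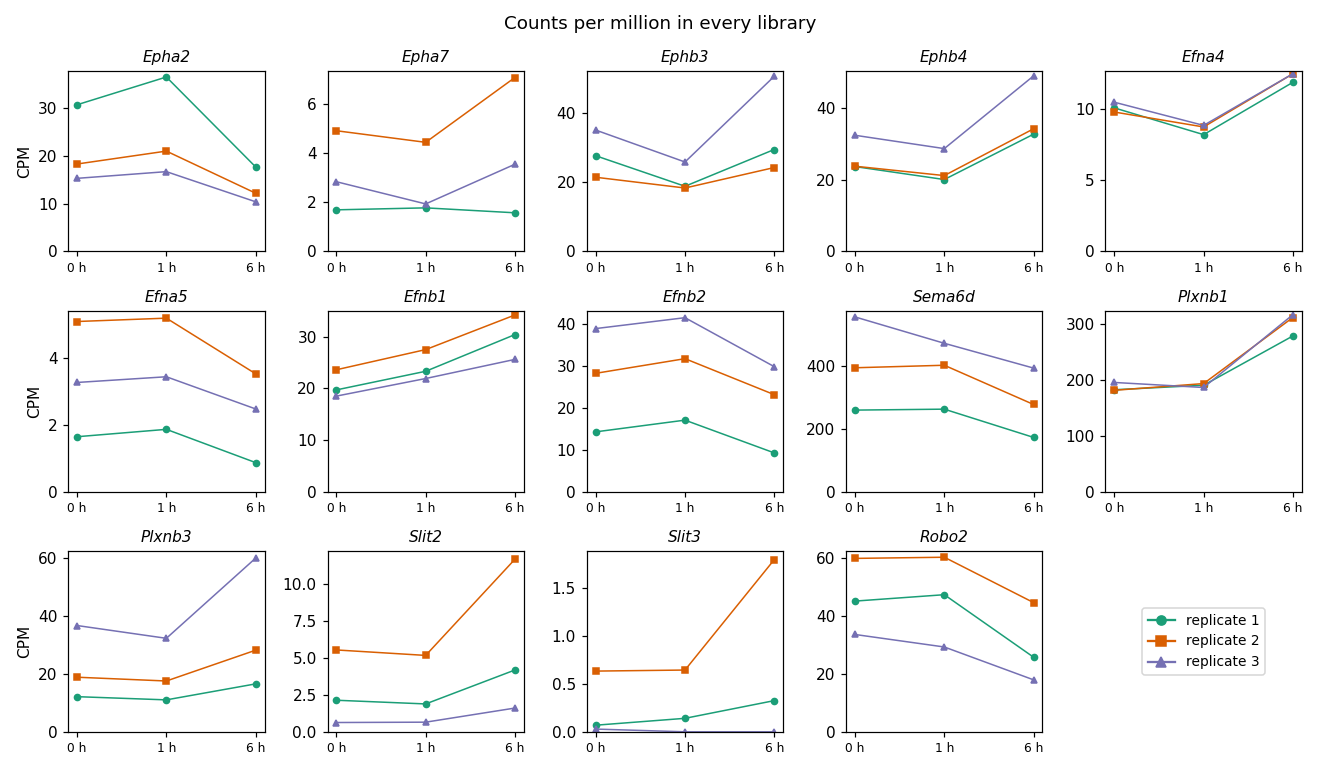
CPM (linear axes from 0) in every library, with the time points (0, 1 and 6 h) spaced evenly, for the 14 genes called with a log2 fold change of 0.5 or more in size in any comparison, with lines joining libraries of the same replicate number. Lines keep their order and lie far apart for Efnb2, Plxnb3, Slit2 and Robo2, and those of Plxnb3 and Slit2 spread wider at 6 h. Lines lie close together for Plxnb1 (0 h: 181 to 195 CPM, 6 h: 278 to 316 CPM) and for Efna4.

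For most of these genes, the range of the 0 h replicates was wider than the fitted change between 6 h and 0 h. The first takes the extremes of single libraries and the second averages over replicates, so the measures are unlike. The ratio of the highest to the lowest replicate at 0 h had a median of 1.67 over the 47 genes, with a range of 1.06 to 22.2, and over all genes with counts in every 0 h library the median was 1.35. For 43 of the 47 genes this ratio exceeded the fold change between 6 h and 0 h, against 74.5% of all genes. The remaining 4 were Ephb4, Efna4, Efnb1 and Plxnb1. Slit3 (22.2) had the widest spread, and replicate 2 was the highest at every time point for Slit2, Slit3, Robo2, Efna5 and Epha7.

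**Figure D4:**
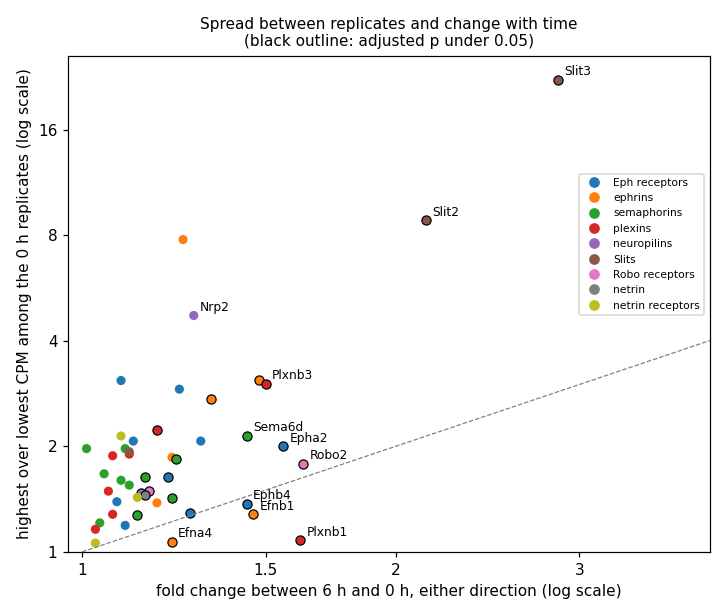
Ratio of the highest to the lowest CPM among the 0 h replicates against the fold change between 6 h and 0 h in either direction, both on log axes, with 1 point per gene, colours by family and a black outline for an adjusted p under 0.05. The dashed line marks equal values, and 43 of the 47 genes lie above it, while Ephb4, Efna4, Efnb1 and Plxnb1 lie below.

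At 1 h, few of the guidance genes differed from 0 h. Efnb1 was higher and Ephb3, Sema4b and Sema4c were lower, which makes 1 and 3 of 47 genes, against 1.36% and 2.14% of all genes called higher and lower. Sema4b, a transmembrane ligand, had 41.2, 64.0 and 43.0 CPM at 0 h, 29.7, 56.8 and 34.6 CPM at 1 h, and 39.4, 53.7 and 38.7 CPM at 6 h (-0.31 ± 0.07 at 1 h, adjusted p = 0.0357). Sema4c, a ligand of Plxnb2, had 54.6, 27.7 and 38.3 CPM at 0 h, 44.7, 23.3 and 32.2 CPM at 1 h, and 49.3, 29.2 and 39.5 CPM at 6 h (-0.26 ± 0.06 at 1 h, adjusted p = 0.0247). Both were lower at 1 h in 3 of 3 replicates, and at 6 h Sema4c was higher than at 1 h (0.25, adjusted p = 0.00425). D430040D24Rik overlaps the exons of Sema4c on the opposite strand and held 1316 counts over the 9 libraries.

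The calls at 1 h were the least firm. None of the 4 was kept in all 9 fits with a library removed. Without the block, edgeR called 0 of the 47 genes at 1 h, where 1 had an unadjusted p under 0.05 and 0.0424% of all genes were called, and DESeq2 without the block also called 0. The median absolute log2 fold change at 1 h was 0.09 for the guidance genes and 0.11 for all genes.

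Between 1 h and 6 h, 11 genes rose and 11 fell, against 18.0% and 17.5% of all genes. At a log2 fold change of 0.5 or more in size, 8 rose and 4 fell, against 10.7% of all genes. Epha7, Ephb3, Efna4 and Efnb2 were past this size here and not at 6 h against 0 h, and the 2 comparisons share their 6 h libraries. Without the block, Plxnb1 and Efna4 were called (2.14% of all genes), and the adjusted p-values of the other 20 genes were between 0.117 and 0.858. The 6 h and 1 h libraries did not overlap for Ephb4, Efna4, Plxna3 and Plxnb1, which makes 4 of 47 genes against 22.2% of all genes, and Plxna3 was not called (0.10 ± 0.05, adjusted p = 0.133).

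Levels shifted between related genes of some families. Per kb, Plxnb1 stood at 0.723, 0.780 and 0.657 times Plxna1 at 0 h and at 1.23, 1.37 and 1.13 times at 6 h, so that their order was reversed in each replicate. Efnb1 stood at 2.75, 1.66 and 0.942 times Efnb2 at 0 h and at 6.51, 2.93 and 1.70 times at 6 h. The ratio of Ephb4 to the gene of its ligand, Efnb2, was 2.44, 1.24 and 1.22 at 0 h, 1.73, 0.979 and 1.01 at 1 h, and 5.20, 2.17 and 2.42 at 6 h. At 6 h, the sum of the 10 Eph receptors was 27.4, 26.7 and 32.0 CPM per kb, and that of the 7 ephrins 19.7, 24.3 and 23.4 CPM per kb. The sum of the Slits was 1.91, 1.91 and 1.61 CPM per kb, that of the Robo receptors was lower than at 0 h in each replicate, and that of the neuropilins was 3.62, 5.04 and 7.77 CPM per kb, against 3.49, 3.24 and 7.46 CPM per kb at 0 h. These ratios and sums are descriptions of the replicates and were not tested.

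The promoters of 4 genes with large changes are shown to set genes that rose (Plxnb1, Slit2) beside genes that fell (Epha2, Robo2). Each is the RefSeq window from 250 bases before to 50 bases after the annotated start on GRCm38.p6, 5′ to 3′ on the strand of the gene, at chr9:109095186-109095485 (+), chr5:47982905-47983204 (+), chr4:141300971-141301270 (+) and chr16:74411776-74412075 (-). Capitals mark exact matches, on either strand, to the GC box GGGCGG bound by Sp1 family factors or to the cAMP response element TGACGTCA.
Plxnb1: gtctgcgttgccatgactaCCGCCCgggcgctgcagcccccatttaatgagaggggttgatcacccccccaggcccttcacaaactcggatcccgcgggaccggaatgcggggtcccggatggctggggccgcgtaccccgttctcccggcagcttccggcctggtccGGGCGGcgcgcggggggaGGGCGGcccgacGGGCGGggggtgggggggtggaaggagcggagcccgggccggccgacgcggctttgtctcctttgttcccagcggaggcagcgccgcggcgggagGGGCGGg
Slit2: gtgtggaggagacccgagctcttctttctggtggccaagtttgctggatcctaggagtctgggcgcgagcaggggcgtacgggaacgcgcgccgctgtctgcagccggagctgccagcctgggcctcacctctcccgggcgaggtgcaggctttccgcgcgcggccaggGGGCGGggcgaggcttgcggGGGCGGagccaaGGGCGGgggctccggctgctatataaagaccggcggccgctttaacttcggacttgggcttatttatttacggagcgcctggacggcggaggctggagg
Epha2: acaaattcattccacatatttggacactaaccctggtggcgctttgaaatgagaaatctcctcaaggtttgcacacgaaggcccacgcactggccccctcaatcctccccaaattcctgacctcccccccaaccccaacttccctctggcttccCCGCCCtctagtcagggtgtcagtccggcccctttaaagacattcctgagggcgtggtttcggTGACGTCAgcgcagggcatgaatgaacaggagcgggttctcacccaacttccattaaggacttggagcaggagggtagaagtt
Robo2: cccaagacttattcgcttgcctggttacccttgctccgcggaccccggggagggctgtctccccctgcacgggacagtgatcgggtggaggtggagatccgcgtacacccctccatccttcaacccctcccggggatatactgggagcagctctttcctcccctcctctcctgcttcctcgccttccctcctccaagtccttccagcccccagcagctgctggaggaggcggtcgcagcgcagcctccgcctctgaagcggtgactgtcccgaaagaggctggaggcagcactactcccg

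The Plxnb1 window held 5 GC boxes, the Slit2 window 3 and the Epha2 window 1, together with the cAMP response element between positions -33 and -26. No match to either motif lay in the Robo2 window. A window was matched for 40 of the 47 genes, in each case the one nearest the annotated start of the gene. Of these, 29 (72.5%) held a GC box against 35.7% of all 32851 windows. The full set was not limited to tested genes or to such a choice of window, so the 2 sets are unlike. The median GC content was 65.2% for the guidance genes and 52.7% for all windows. The other motifs searched on both strands were rare. The EGR motif GCGTGGGCG lay in 2 windows of guidance genes (Efna3 and Plxna2, 0.612% of all windows), the AP-1 motif TGANTCA in 1 (Sema4c, 7.81% of all windows), the cAMP response element in 1 (Epha2, 1.79%), the E-box CACGTG in 2 (Sema3e and Sema6d, 7.15%) and the FOXO motif GTAAACA in 0 (3.65%). The EGR motif holds no complete GC box, and no motif of this set lies within another. A match of letters is a description of the window and was not linked to binding.

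Other members of the same families, taken from a list of 32 genes of which 28 could be tested, gave 9 higher and 2 lower calls at 6 h against 0 h. Together these were 39.3% of the 28, close to the 34.9% of all genes. Epha10, an Eph receptor without kinase activity, rose from 0.340 ± 0.229 to 1.27 ± 0.891 CPM (1.87 ± 0.23, adjusted p = 5.0e-05). The divergent receptor Robo3 fell from 2.13 ± 0.791 to 0.989 ± 0.313 CPM (-1.10 ± 0.15, adjusted p = 9.5e-05), as Robo2 and Robo1 did. The netrin receptor Unc5c rose from 3.21 ± 1.22 to 6.04 ± 3.02 CPM (0.87 ± 0.12, adjusted p = 1.5e-04), unlike Unc5b, which did not pass. Draxin, a secreted ligand of DCC, had 2.63 ± 1.34 and 4.22 ± 0.980 CPM (0.76 ± 0.15, adjusted p = 0.0015). All 4 kept 1 direction in 3 of 3 replicates, and none of the 28 was called without the block. At 1 h, Flrt3, a partner of Unc5 receptors, and Rgmb, a ligand of neogenin, were higher (0.41 and 0.31, adjusted p = 0.0023 and 0.0232).

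Of 56 genes that act downstream of these receptors, 20 were higher and 13 lower at 6 h than at 0 h, with a median log2 fold change of 0.03. The share called was 58.9%, beside 34.9% of all genes and 6084 of the 13606 genes with a mean of at least 1 CPM. These margins were not tested, and 2 of the 56 were called without the block. Cdk5r1, an activator of Cdk5, rose from 8.45 ± 2.10 to 21.2 ± 7.24 CPM (1.30 ± 0.08, adjusted p = 2.3e-07), and it was already higher at 1 h (0.48 ± 0.08, adjusted p = 0.00735). Crmp1, which encodes a collapsin response mediator protein of the semaphorin pathway, rose from 75.3 ± 15.0 to 177 ± 10.1 CPM (1.25 ± 0.07, adjusted p = 6.0e-08). This was also called without the block (adjusted p = 0.0147). Ngef, which encodes the Eph receptor exchange factor ephexin, had 0.976 ± 0.0149 and 0.548 ± 0.0368 CPM (-0.84 ± 0.20, adjusted p = 0.00515). From 1 h to 6 h, 20 of the 56 rose and 8 fell, against 18.0% and 17.5% of all genes. At 1 h, 1 rose (Cdk5r1) and 1 fell (Vav3, -0.22, adjusted p = 0.0256), which is 3.57% of the 56 and near the shares of all genes (1.36% higher and 2.14% lower).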

How the data were processed

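RNA was measured in 9 libraries of cultured NSCs. The authors deposited raw counts of reads per gene, from paired-end reads aligned to mm10 (GRCm38) with STAR 2.5.3a after FastQC, and tested them with DESeq2 1.22.1. The strand setting of the counting is not given in the sources used here. GENCODE M21 gave the symbols and positions and matched 48144 of 48526 identifiers.

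Counts were fitted in R 4.3.3 with edgeR 4.0.16 (glmQLFit and glmQLFTest), with time point and replicate number as factors, TMM scaling and filterByExpr (minimum count 10, minimum total 15), and p-values were adjusted by Benjamini-Hochberg with a threshold of 0.05. The SE was derived from the F statistic. CPM used TMM-scaled library sizes. The methods of the study name no covariate. Same-numbered libraries were paired by the labels' replicate numbers, and the replicate block followed this set pairing. They were correlated after removal of time-point means (r = 0.733 to 0.800 in 9 pairs, -0.462 to -0.314 otherwise). That removal makes the other pairs negative when same-numbered pairs are positive, so the negative values add no evidence. No 2 libraries agreed within sampling noise (chi-square per degree of freedom of at least 13.6). The fits were tested on simulated counts. Python 3.11.15 (numpy 2.4.6, pandas 2.3.3 and matplotlib 3.10.9) was used for tables and figures.

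The members and gene lists were chosen with earlier results of these data known. Values in every library are given for members called with a log2 fold change of 0.5 or more in size in any comparison and for the 3 highest and 3 lowest per kb, and up to 4 genes are named per other list and comparison. Sema4b, Sema4c, Nrp2 and Ntn1 are shown in every library by choice after their values had been seen, as are the ratios and promoters. Intervals and floors cover counting error only. The alternatives were DESeq2 1.42.0, no replicate block, RLE scaling, library totals, other filters and thresholds, fits of 6 libraries, trends in GC content and length removed (splines with 4 degrees of freedom) and leaving out each library.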

Additional observations from a re-analysis of the deposited data

How the results depend on the processing

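The replicate block decided most calls. At 1 h against 0 h, the 1 gene higher and 3 lower became 0 and 0 with edgeR without the replicate block, with DESeq2 without it, at an adjusted p under 0.01 and with a log2 fold change of 0.5 or more in size. The gene called higher was also lost (0) with library totals, with the GC content and length trends removed and in the fit of 6 libraries, and 1 gene was called lower with a mean of at least 1 CPM. Leaving out 1 library gave 0 to 1 higher and 0 to 3 lower. At 6 h against 0 h, the 11 higher and 11 lower became 1 and 0 without the block (edgeR), 3 and 0 with DESeq2 without the block, and 6 and 4 with a log2 fold change of 0.5 or more in size, and 7 were higher at an adjusted p under 0.01. Leaving out 1 library gave 5 to 11 higher and 6 to 13 lower, with 5 higher without the 0 h replicate 2, 6 lower without the 0 h replicate 3 and 7 lower without the 6 h replicate 2. At 6 h against 1 h, the 11 higher and 11 lower became 2 and 0 without the block (edgeR) and 3 and 0 with DESeq2 without the block, and 7 and 4 were lower at an adjusted p under 0.01 and with a log2 fold change of 0.5 or more in size. Leaving out 1 library gave 10 to 13 higher and 6 to 14 lower, with 6 lower without the 1 h replicate 2 and 7 without the 6 h replicate 1. Some settings gave more calls. For 6 h against 0 h, no filter gave 14 higher and 11 lower, and removing the GC content and length trends gave 10 and 15. For 6 h against 1 h, no filter gave 16 and 11, library totals 14 and 8, and removing the trends 11 and 15. Apart from the settings themselves, some of which raise the threshold or remove samples or the pairing, the cause was not tested.

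No log2 fold change of a called member was reversed under any alternative run. Of the members called, 0 of 4, 11 of 22 and 15 of 22 kept their call in all 9 fits without a library (1 h and 6 h against 0 h, 6 h against 1 h), and 3, 19 and 22 kept it with the GC content and length trends removed, which ended the calls of Efnb1 at 1 h and of Ephb3, Sema3a and Ntn1 at 6 h. RLE scaling kept every call, and DESeq2 with the block lost Slit3 at 6 h in both comparisons. Over all genes, 661, 6581 and 6710 calls became 8, 456 and 404 without the block and 99, 1742 and 1695 with DESeq2 without it, and no filter gave 1369 calls at 1 h. With the longest transcript as length, the levels of Sema6d, Slit2 and Epha3 at 0 h were 62.7, 0.279 and 0.0247 CPM per kb. Depth limits the values of Slit3 and Epha3, which had as few as 0 and 7 counts in a library.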
